A study of Mus musculus with 4 samples.

Results

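The transcripts examined in the hippocampus are often chosen in laboratories as reference genes for quantitative PCR (qPCR): Actb, Actg1, Ppia, Ywhaz, Tbp, Hprt, Gusb and Sdha. These 8 genes were chosen by name, not by any measured value, and each has 1 of the 29300 rows of the count table. All 8 passed the filter on low counts and were among the 17144 genes tested. RNA of the hippocampus was sequenced from 2 sham (control) mice and 2 surgery mice on day 1, with 1 mouse per library. All were male wild-type C57BL/6 mice of 7 to 8 months, and all received isoflurane anesthesia and tramadol analgesia. The sham mice had anesthesia only, whereas the surgery mice also had an open fracture of the tibia fixed with an intramedullary pin, a mouse model of perioperative neurocognitive disorder (PND).

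A reference gene serves as the denominator of a relative qPCR measurement, so any change of its own level is passed on to every target measured against it. Such genes are usually taken from basic cell functions: the cytoskeleton, protein folding, signaling adaptors, transcription, nucleotide recycling, the lysosome and respiration. Since different functions are unlikely to be regulated together, several unrelated reference genes are commonly compared with each other in the tissue and treatment at hand.

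Library totals ran from 15763432 to 18573386 counts, and 24238 to 25324 genes were detected per mouse. The 6 markers of hippocampal neurons were present at a summed level of 918 to 1040 CPM (counts scaled by library total and TMM factor) in all 4 mice, although within this sum Zbtb20 (log2 fold change 0.44) and Neurod6 (0.53) rose and Wfs1 (-0.70) and Fibcd1 (-0.64) fell. Of 5 astrocyte markers, Aqp4 (0.73) and Gja1 (0.36) rose and Aldh1l1 (-0.49) fell, of 5 microglia markers P2ry12 (0.84) rose while the median of the 5 was -0.14, and of 5 endothelial markers Flt1 (0.41) rose. With each library's trends in transcript length and GC content removed, Zbtb20 (0.57) alone of these markers was called, and Aqp4 came to 0.25, Gja1 to 0.05, P2ry12 to 0.18 and Neurod6 to 0.09, while Flt1 (0.41), Wfs1 (-0.45), Fibcd1 (-0.35) and Aldh1l1 (-0.30) lost their calls with less or no change in size. The libraries were not alike in neighboring tissue, since the summed CPM of 5 choroid plexus markers was 126 and 5387 in the sham mice and 2021 and 3434 in the surgery mice, so that sham mouse 1 stood apart. The 5 oligodendrocyte markers summed to 5869 and 5081 CPM in the sham mice and 5784 and 3734 CPM in the surgery mice. The share of counts from mitochondrially encoded messages also moved with the groups, at 2.82 and 2.52% in sham and 4.44 and 4.48% in surgery mice. The part of these differences in the results was not tested. In bulk tissue, fewer cells of a type and less RNA per cell cannot be told apart.

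With TMM scaling the reference genes did not move together. Actb, Actg1 and Sdha fell after surgery, Ywhaz and Tbp rose, and Ppia, Hprt and Gusb did not pass the test. With length and GC trends removed both rises were lost, Tbp alone was above 0, and the 3 genes called (Actg1, Sdha and Hprt) were all lower, where 2.49% of all genes tested were called in either direction. In the fit with TMM scaling and the trends left in, 5 of 8 genes passed an adjusted p of 0.05, where 26.0% of all genes tested did. The test was the quasi-likelihood test in edgeR, with p adjusted over all genes by Benjamini-Hochberg. In each direction, 3 of 8 fell against 12.8% of all genes and 2 of 8 rose against 13.1%. Of the 8 genes, 0 were differentially expressed genes (DEGs), which had in addition a fold change of 0.67 or less or of 1.5 or more, where 9.01% of all genes were. None of the 8 fold changes reached these limits, whatever the p, and DESeq2 and limma-voom also gave 0 DEGs. The median size of the log2 fold change was 0.31 over the 8 genes and 0.29 over all genes tested. Without sham mouse 1, the library low in choroid plexus markers, 4 of the 8 passed the test, against 19.6% of all genes. Without sham mouse 2 only 2 passed (13.5% of all genes), and without surgery mouse 2 only 3 did (16.4%).

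**Figure D1:**
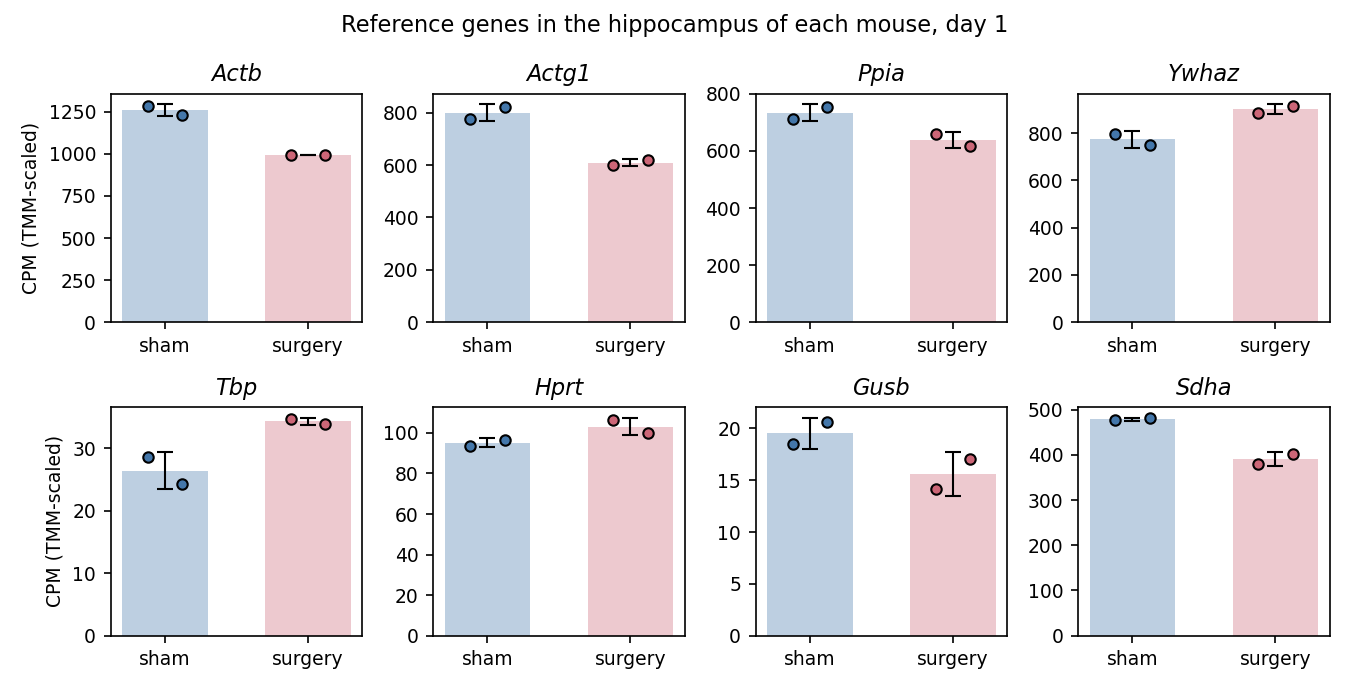
Level of each of the 8 reference genes in CPM (TMM-scaled, linear axis from 0) in the 2 sham and 2 surgery mice. Points are mice, bars are group means and error bars are SDs. The surgery points lie below the sham points for Actb, Actg1, Ppia, Gusb and Sdha and above them for Ywhaz, Tbp and Hprt.

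Actb and Actg1 encode the cytoplasmic beta and gamma actins, which polymerize into the filaments of the cell cortex and of dendritic spines. Actb (ENSMUSG00000029580) lies on the minus strand of mm10 at chr5:142903115-142906754. Actg1 (ENSMUSG00000062825) lies on the minus strand at chr11:120345690-120348542. Their coding sequences of 1125 bases are 88.6% identical and differ at 128 bases, yet of 375 residues only 4 differ. The first 90 coding bases, 5′ to 3′ from the start codon, are shown because they let a reader see how the messages of these near-identical proteins differ. Capitals mark the 16 bases at which they differ (mm10, GENCODE).
Actb: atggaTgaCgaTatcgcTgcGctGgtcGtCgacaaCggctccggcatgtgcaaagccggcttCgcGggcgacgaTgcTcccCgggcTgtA
Actg1: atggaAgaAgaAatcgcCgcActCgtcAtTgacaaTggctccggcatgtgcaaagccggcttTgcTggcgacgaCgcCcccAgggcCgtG
The longest run without a difference spans coding bases 889 to 950, 62 bases in both genes, and is shown because it is the stretch in which the actins are least distinct.
Actb and Actg1: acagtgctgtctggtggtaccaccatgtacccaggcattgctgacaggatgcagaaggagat
No identical run reached 75 bases, the window length used to look for shared sequence.

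Actb had 22115 and 22551 counts in the sham mice and 15819 and 16756 counts in the surgery mice. Scaled by library size, these were 1284 and 1234 CPM in the sham mice and 992 and 993 CPM in the surgery mice. Both surgery mice were below both sham mice, and the surgery mice differed from each other by less than the sham mice did. Between the group means, 1259 ± 35.4 and 992 ± 0.638 CPM (SD, n = 2 each), Actb fell by 21.2% (log2 fold change -0.34, SE 0.06, 95% interval -0.48 to -0.21; edgeR adjusted p = 0.0084). Leaving out any 1 mouse gave log2 fold changes of -0.38 to -0.32. With length and GC trends removed Actb was at -0.31 and lost its call (edgeR adjusted p = 0.067).

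Actg1 was at 776 and 822 CPM in the sham mice and at 600 and 618 CPM in the surgery mice. As for Actb, the groups did not overlap. Actg1 fell by 23.8% (log2 fold change -0.39, SE 0.06, 95% interval -0.54 to -0.25; edgeR adjusted p = 0.0068). It kept this call without each mouse in turn. The ratio of Actb to Actg1 within a library moved little, with log2 values of 0.73 and 0.59 in the sham mice and 0.73 and 0.68 in the surgery mice.

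The actins share transcript sequence with other loci, which could take or give reads. Of the 75 nt windows of Actg1, 58.4% also occurred in another gene, mostly the processed pseudogene Gm12715. Gm12715 held 149 and 157 counts in the sham mice and 130 and 125 in the surgery mice. Counts per gene cannot show how many reads matching several loci were left out of all of them. Actb shared 2.60% of its windows, nearly all with Lrrc58, a protein-coding gene at 921 and 1039 counts in the sham mice and 1323 and 1512 in the surgery mice. With the counts of all sharing genes added to each actin, the log2 fold change was -0.29 for Actb (edgeR adjusted p = 0.0143) and -0.39 for Actg1 (adjusted p = 0.0069).

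Of 5 further actin genes only 2 passed the filter, and Acta1, the skeletal muscle actin, fell from 9.75 and 7.71 CPM to 4.45 and 4.92 CPM (log2 fold change -0.89, edgeR adjusted p = 0.0237). The other was not called and lay on the opposite side of 0, since the 2 had a median log2 fold change of 0.0039 and a median size of 0.90. Of 15 genes for actin-binding proteins, 3 rose and 3 fell (13.1% and 12.8% of all genes did), and the median log2 fold change was -0.0018 against 0.01 for all genes. Pfn1, which loads actin monomers with ATP, fell (-0.46), as did Arpc1a (-0.47), a subunit of the Arp2/3 nucleator. Cfl2 (1.03) and Dstn (0.59), which both sever filaments, rose. Once trends in length and GC content were removed, Arpc1a (-0.41) alone of the 15 kept a call, Cfl2 came to 0.17 and Dstn to 0.34, and Acta1 (-0.68) lost its call as well.

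Ywhaz encodes the zeta isoform of 14-3-3, an adaptor that binds phosphorylated proteins and is abundant in brain (ENSMUSG00000022285, chr15:36770770-36794547, minus strand). Its counts were 13745 and 13671 in the sham mice and 14110 and 15440 in the surgery mice, or 798 and 748 CPM against 885 and 915 CPM. Both surgery mice were above both sham mice. Ywhaz rose by 16.4% (log2 fold change 0.22, SE 0.06, 95% interval 0.07 to 0.37; edgeR adjusted p = 0.042). This call was lost whichever mouse was left out, with adjusted p-values of 0.057 without sham mouse 1, 0.202 without sham mouse 2, 0.064 without surgery mouse 1 and 0.111 without surgery mouse 2. Of its windows, 26.9% were shared, nearly all with the processed pseudogene Gm4202, which had 193 to 233 counts per mouse. With length and GC trends removed Ywhaz turned to -0.13 and was not called.

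Among 6 other 14-3-3 genes, Ywhaq rose (log2 fold change 0.29, edgeR adjusted p = 0.0454) and Ywhag fell (-0.21, adjusted p = 0.0359). Ywhag, the gamma isoform, was at 1362 and 1330 CPM in the sham mice and at 1174 and 1147 CPM in the surgery mice. The remaining 4 did not pass the test, so that 1 of 6 was called in each direction, near the shares of all genes (13.1% higher and 12.8% lower). Ywhaq (0.23) and Ywhag (-0.17) lost their calls with length and GC trends removed.

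Tbp encodes the TATA-binding protein, the subunit of TFIID that contacts core promoters (ENSMUSG00000014767, chr17:15499888-15528379, plus strand). It had 492 and 445 counts in the sham mice and 554 and 573 counts in the surgery mice, which is 28.6 and 24.3 CPM against 34.7 and 34.0 CPM. The groups did not overlap, and the 2 sham mice were further apart than the surgery mice. Tbp rose by 29.9% (log2 fold change 0.38, SE 0.11, 95% interval 0.12 to 0.64; edgeR adjusted p = 0.045). The call was lost without sham mouse 2 (adjusted p = 0.202), surgery mouse 1 (0.112) or surgery mouse 2 (0.083), while it held without sham mouse 1. At these counts the sampling error of a single library alone was 4.18 to 4.74%.

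Of 17 tested genes of general transcription, 4 rose and 1 fell, against the same shares of 13.1% and 12.8%. Gtf2a1 (0.89) and Gtf2a2 (0.71), which encode TFIIA, a partner of the TATA-binding protein, were among those that rose. Polr2a, the catalytic subunit of RNA polymerase II, fell (log2 fold change -0.52, edgeR adjusted p = 0.0057), from 176 and 195 CPM to 127 and 131 CPM. Polr2a and Tbp, which are both used as reference genes, were therefore called in opposite directions. Polr2a (-0.43) kept its call with length and GC trends removed, while Gtf2a1 (0.37), Gtf2a2 (0.19) and Tbp did not.

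Sdha encodes the flavoprotein subunit of succinate dehydrogenase, which is complex II of the respiratory chain and an enzyme of the citric acid cycle (ENSMUSG00000021577, chr13:74322254-74350280, minus strand). Its counts were 8211 and 8794 in the sham mice and 6063 and 6778 in the surgery mice. In CPM the sham mice were at 477 and 481 and the surgery mice at 380.2 and 402, with no overlap. Sdha fell by 18.4% (log2 fold change -0.29, SE 0.06, 95% interval -0.43 to -0.15; edgeR adjusted p = 0.0145). Without sham mouse 2 the adjusted p was 0.053. Of the 6 other complex II genes tested, Sdhd, a membrane anchor subunit, fell (-0.49, adjusted p = 0.0057) and 5 did not pass the test, where 12.8% of all genes fell.

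Ppia encodes cyclophilin A, a cytosolic prolyl isomerase that assists protein folding (ENSMUSG00000071866, chr11:6415443-6419817, plus strand). It was at 712 and 754 CPM in the sham mice and at 658 and 618 CPM in the surgery mice. Both surgery values lay below both sham values, yet the difference did not pass the test across all genes (log2 fold change -0.20, SE 0.06, 95% interval -0.35 to -0.05; edgeR adjusted p = 0.061). Ppia shared 51.0% of its windows with other genes, many of them processed pseudogenes such as Gm10123, and with Gclm at 594 and 666 counts in the sham mice and 781 and 789 in the surgery mice. The counts of all sharing genes came to 9.16 to 12.6% of those of Ppia. Added to Ppia, they moved its log2 fold change to -0.16 (adjusted p = 0.107).

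Of 14 other cyclophilins, 5 rose and 1 fell, where 13.1% and 12.8% of all genes did. Ppig and Nktr, both nuclear cyclophilins with arginine-serine-rich domains, were among those that rose (adjusted p of 0.0039 and 0.0045 in edgeR). Ppig was at 30.9 and 26.0 CPM in the sham mice and at 76.8 and 84.4 CPM in the surgery mice. Ppif, the mitochondrial cyclophilin D, fell (-0.52, edgeR adjusted p = 0.0122). Only Ppig (0.66) and Nktr (0.41) of the 14 were called with length and GC trends removed, and the median log2 fold change went from 0.33 to 0.08.

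Hprt encodes hypoxanthine phosphoribosyltransferase, which recycles purine bases (ENSMUSG00000025630, chrX:52988137-53021659, plus strand). Its counts were 1613 and 1767 in the sham mice and 1693 and 1689 in the surgery mice. In CPM these were 93.6 and 96.7 against 106 and 100.1, so that the surgery mice were higher with a narrow gap between the groups. With TMM scaling Hprt had the smallest difference of the 8 genes (log2 fold change 0.12, SE 0.07, 95% interval -0.05 to 0.28; edgeR adjusted p = 0.25), and 20.6% of all genes tested had a smaller one. This rank passed to Ppia with total counts only (-0.15 for Ppia, 0.16 for Hprt) and without surgery mouse 2 (-0.15 and 0.16), and without surgery mouse 1 Hprt was at 0.06. The rank also passed to Ppia when each gene was scaled by the other 7, which gave -0.11 for Ppia, 0.25 for Hprt and 0.37 for Ywhaz. It passed to Ppia (-0.04) with length and GC trends removed as well, where Hprt turned to -0.47 and was called (edgeR adjusted p = 0.048). Of 11 other purine salvage genes 3 passed the test, a share near the 26.0% of all genes. Dck (0.77) and Gda (0.48) rose and Ampd2 (-0.43) fell. All 3 lost their calls with length and GC trends removed, at 0.38, 0.08 and -0.21.

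Gusb encodes the lysosomal beta-glucuronidase (ENSMUSG00000025534, chr5:129989011-130003049, minus strand) and had the lowest level per length of the 8 over the transcript used for each gene, though not over all annotated exons. It had 318 and 376 counts in the sham mice and 225 and 288 in the surgery mice, or 18.5 and 20.6 CPM against 14.1 and 17.1 CPM. The groups did not overlap, but the spread within them was wide and the log2 fold change of -0.32 (SE 0.14, 95% interval -0.66 to 0.01) did not pass the test (edgeR adjusted p = 0.138). The interval reached past a fold change of 0.67, so that a fall of DEG size could not be told from no difference in these mice. Of 18 other lysosomal hydrolases, 4 passed the test, a share near the 26.0% of all genes. Gaa (-0.51), Neu1 (-0.32) and Arsb (-0.26) fell and Ids (0.26) rose. With length and GC trends removed these calls were lost, with Gaa at -0.23, Neu1 at -0.10, Arsb at -0.25 and Ids turned to -0.23. Without surgery mouse 1 the log2 fold change of Gusb was -0.21, and without surgery mouse 2 it was -0.46.

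Over all 8 genes, both surgery mice lay beyond both sham mice in every case, which held for 65.5% of all genes tested. They were below in 5 of 8 (32.2% of all genes) and above in 3 of 8 (33.2%). With TMM scaling of all 4 mice, for 6 of 8 genes the whole 95% interval stayed within the fold limits of 0.67 and 1.5, and the exceptions were Tbp and Gusb. The interval of Hprt passed the lower limit with length and GC trends removed (-0.68 to -0.26), and that of Actg1 did without sham mouse 1 (to -0.62) and without surgery mouse 2 (to -0.59). Of all genes tested, 57.1% had a smaller difference than Actb and 63.7% a smaller one than Actg1.

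Levels between genes were compared per length, as RPKM (CPM divided by transcript length in kilobases, mean and range of the 4 mice). Actb (586, 517 to 669) and Ppia (586, 528 to 645) were the highest and did not differ beyond their ranges. Actg1 (385, 328 to 450) and Ywhaz (366, 327 to 400) followed and overlapped as well. Sdha (150, 131 to 166), Hprt (76.9, 72.6 to 82.4), Tbp (14.7, 11.8 to 16.8) and Gusb (6.53, 5.25 to 7.66) were each apart from their neighbors. The order depended on the transcript taken for each gene, since Ppia came to 195 RPKM and Tbp to 2.24 RPKM over all their annotated exons, which put Ppia below Actg1 and Tbp below Gusb.

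Fold changes in these libraries moved with the GC content of the transcript. The median log2 fold change of all genes was 0.59 in the lowest of 8 equal bins of GC content and -0.34 in the highest. The direction of the 8 genes split along the same axis. Hprt (40.1% GC), Ywhaz (43.8%) and Tbp (46.3%) were higher after surgery. Sdha (48.5%), Actb (51.1%), Actg1 (51.2%), Gusb (52.2%) and Ppia (55.4%) were lower. The sizes did not follow GC content, since Hprt (0.12) rose less than Ywhaz (0.22) and Tbp (0.38), and Ppia (-0.20) fell least.

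**Figure D2:**
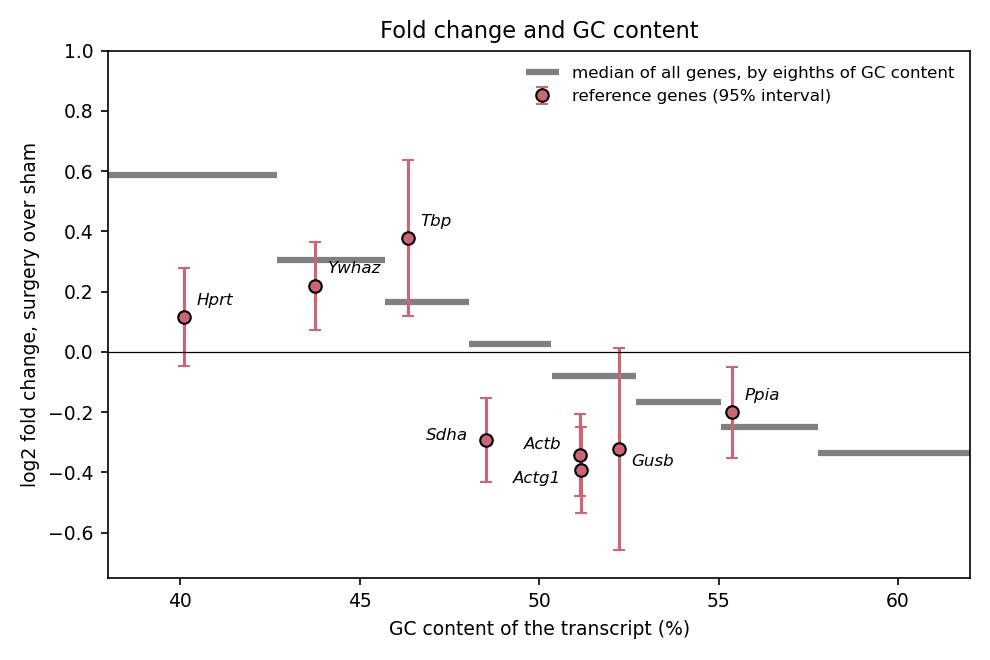
Log2 fold change (surgery over sham) of the 8 reference genes against the GC content of their transcript in percent, with 95% intervals, and the median of all genes in 8 bins of GC content (grey bars, cut off at the plot's sides). The bin medians run from 0.59 to -0.34, with Tbp and Ppia above the median of their bin and the other 6 genes below it.

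With each library's trends in transcript length and GC content removed, 3 of the 8 genes were called. Actg1 (log2 fold change -0.36, edgeR adjusted p = 0.044) and Sdha (-0.40, adjusted p = 0.040) remained lower, and Actb kept its size (-0.31) but not its call (adjusted p = 0.067). Ppia came to -0.04 and Tbp to 0.16, neither of them called. Ywhaz turned from 0.22 to -0.13 (adjusted p = 0.30). Hprt, which differed least with TMM scaling, turned from 0.12 to -0.47 and passed the test (adjusted p = 0.048). Gusb was at -0.25 (adjusted p = 0.32).

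**Figure D3:**
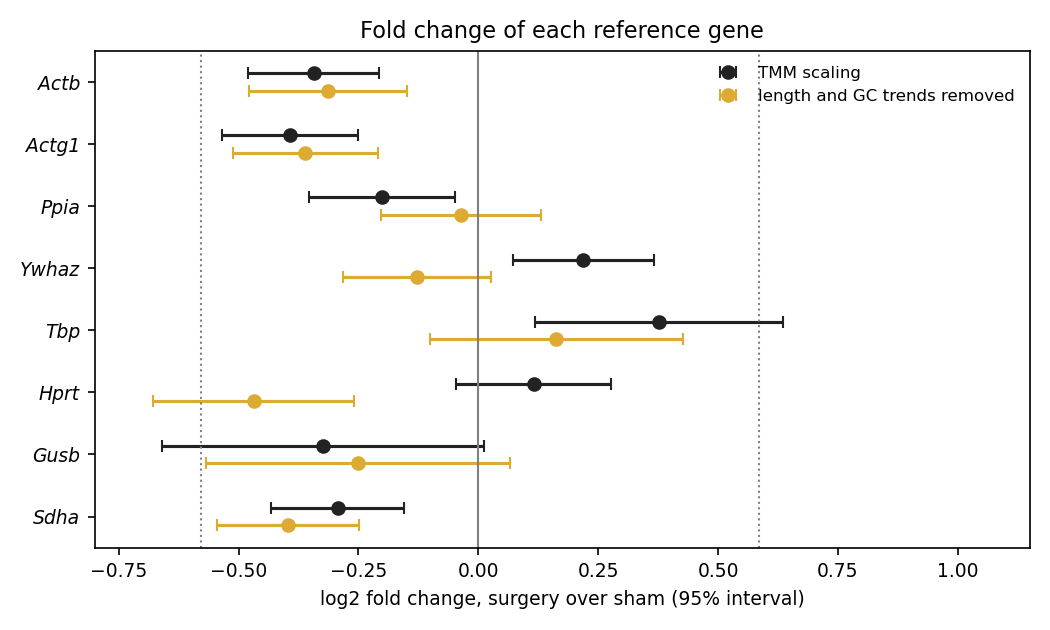
Log2 fold change of each reference gene with its 95% interval, with TMM scaling (black) and with length and GC trends removed (yellow). Dotted lines mark fold changes of 0.67 and 1.5. Actb, Actg1 and Sdha are below 0 in both, whereas Ywhaz and Hprt change sign.

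Ratios between the genes of a library do not depend on how libraries are scaled by a single factor, although they do depend on trends in length and GC content. The log2 ratio of each of the 28 pairs was therefore taken in each mouse. With 2 mice against 2, the exact permutation test cannot go below a two-sided p of 0.333, so the ratios are given without a test. In 20 of 28 pairs the sham and surgery mice did not overlap, a count with no background of its own, since the pairs reuse 8 genes that each separated the groups as 65.5% of all genes did. The median shift between groups was 0.36 in size against a median SD within groups of 0.09.

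Pairs among Actb, Actg1, Sdha, Gusb and Ppia shifted by at most 0.19 in size, as did Ywhaz to Hprt (0.10) and Ywhaz to Tbp (-0.16). The log2 ratio of Actb to Sdha was 1.43 and 1.36 in the sham mice and 1.38 and 1.31 in the surgery mice, a shift of -0.05. Actb to Gusb shifted by -0.01, although its values ran from 5.86 to 6.14. Ratios of these 5 genes to Ywhaz, Hprt or Tbp shifted more, by 0.32 to 0.77 in size. For Actb to Ywhaz the log2 ratio was 0.69 and 0.72 in the sham mice and 0.16 and 0.12 in the surgery mice, a shift of -0.56 that exceeded the spread within either group. The largest shift was that of Actg1 to Tbp (-0.77), from 4.76 and 5.08 to 4.11 and 4.19. With length and GC trends removed, 9 of the 28 shifts turned in sign. Actb to Hprt went from -0.46 to 0.16 and Actb to Ywhaz from -0.56 to -0.19, and Actg1 to Tbp from -0.77 to -0.52. Ppia to Sdha widened to 0.36, Actb to Ppia to -0.28 and Actg1 to Ppia to -0.33, while Ppia to Ywhaz narrowed to 0.09 and Ppia to Tbp to -0.20, and the largest shift was then that of Tbp to Hprt (0.63).

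**Figure D4:**
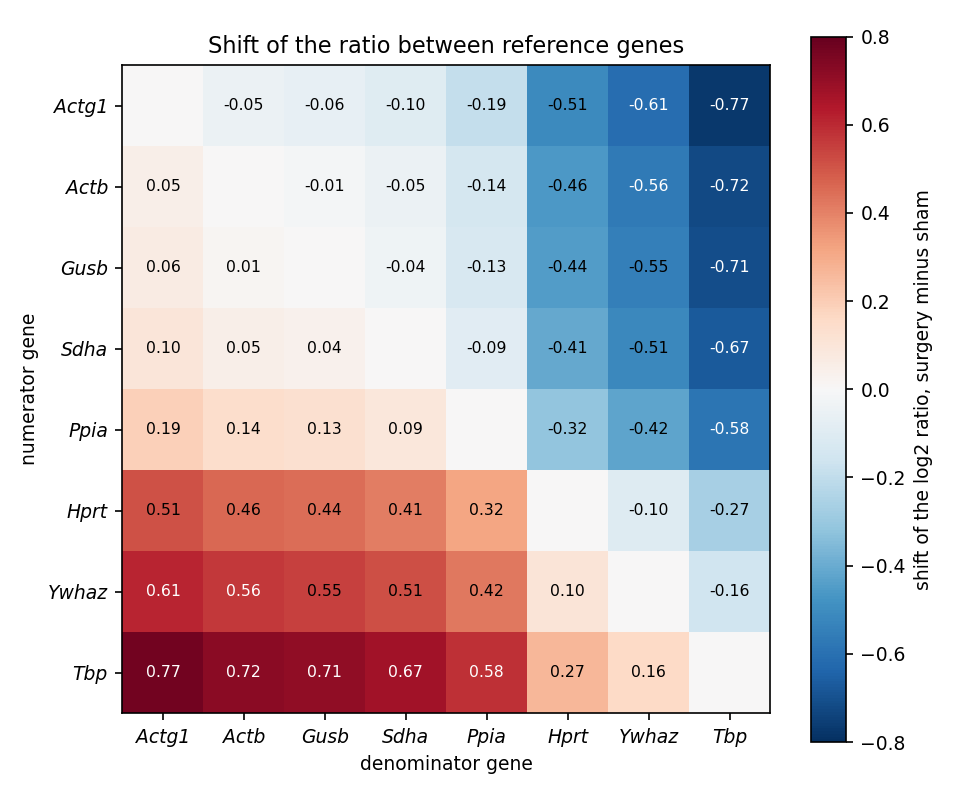
Shift in the log2 ratio of each pair of reference genes, surgery minus sham mean of 2 mice each, with the numerator in rows and the denominator in columns (red, higher after surgery; blue, lower). Actg1, Actb, Gusb, Sdha and Ppia form a pale block with shifts of at most 0.19 in size, and their ratios to Tbp reach -0.77.

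A common stability measure, M, averages for each gene the SD over all mice of its log2 ratio to each of the others, so that a low M means that the gene keeps step with the rest of the panel. M was lowest for Sdha (0.180), Ppia (0.185) and Actb (0.198), followed by Actg1 (0.212), Hprt (0.227), Gusb (0.231) and Ywhaz (0.258), and highest for Tbp (0.345). The order is not that of the fold changes. Hprt had the smallest fold change but a middle M, and Actb and Sdha had a low M while both fell, since 5 of the 8 genes of the panel were lower after surgery. M ranks the genes relative to this panel alone, with trends in length and GC content left in. With those trends removed 9 of the 28 ratio shifts turned in sign, and M was not computed. The order of M changed when mice were left out. Without surgery mouse 2 Ppia was lowest (0.190, Sdha 0.191), without surgery mouse 1 Gusb (0.171) was below Actb (0.195), Hprt (0.197) and Actg1 (0.201), and without sham mouse 2 Actg1 (0.182) was below Actb (0.193). Tbp stayed highest without each mouse in turn, between 0.254 and 0.402.

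The choice of reference set the size of a relative measurement. As the worked case, 20 genes related to respiratory complexes and a proton pump were used, which the study assayed by qPCR with beta-actin as the reference. They are called subunit genes here after the study's own description. The study chose these genes on these same libraries, so their fall is not independent evidence. Scaled by library size, their median log2 fold change was -0.68, and 19 of 20 were DEGs, where 9.01% of all genes were. Their median was -0.57 and 15 of 20 were called with length and GC trends removed, where 2.49% of all genes were. Cox5a, a subunit of cytochrome c oxidase, went from 78.3 and 86.2 CPM to 46.7 and 46.3 CPM (-0.82). Uqcr11, a subunit of complex III, went from 59.7 and 68.8 CPM to 36.6 and 37.6 CPM (-0.79).

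Relative to Actb within each library, the median log2 difference of these 20 genes was -0.34, with single genes from -0.48 to -0.23. All 20 stayed lower and 19 of 20 did not overlap between groups, but 0 of 20 reached a fold change of 0.67. No share of all genes relative to Actb was taken. Scaled by library size, both surgery mice lay below both sham mice in 32.2% of all genes, and these 20 genes were chosen on these libraries. Relative to Actg1 the median was -0.29, relative to Gusb -0.35 and relative to Sdha -0.39, again with 0 of 20 at 0.67. Against Ppia the median was -0.48 and 2 of 20 reached 0.67.

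The other references gave larger differences with the counts as deposited. Relative to Hprt the median was -0.80, to Ywhaz -0.90 and to Tbp -1.06, and in each case all 20 genes reached a fold change of 0.67. The geometric mean of the 8 reference genes gave -0.58, with 10 of 20 at 0.67. The direction of the median was the same for all 8 references, while its size ranged from a fold of 0.479 with Tbp to one of 0.818 with Actg1.

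This order held only with the trends in length and GC content left in. With them removed, the median was still largest in size relative to Tbp (-0.73, 17 of 20 at 0.67), but smallest relative to Hprt (-0.10), where 15 of 20 genes were lower and 0 reached 0.67. It was -0.17 relative to Sdha, -0.20 to Actg1, -0.25 to Actb, -0.31 to Gusb, -0.44 to Ywhaz and -0.53 to Ppia. Thus Hprt moved from a reference with a large difference to the one with the smallest, and the mean of the 8 gave -0.34.

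**Figure D5:**
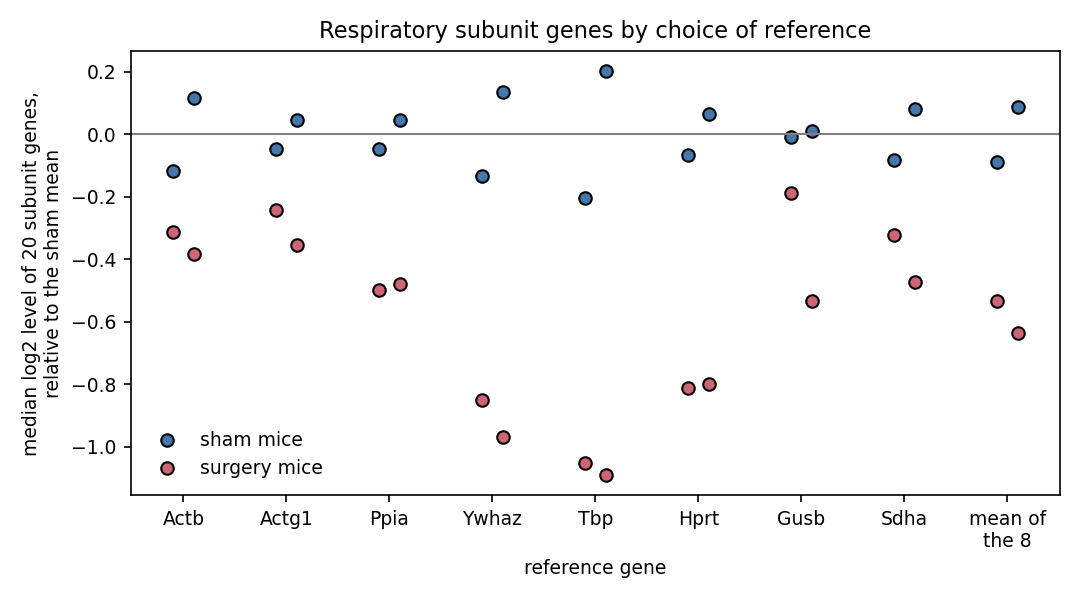
Median log2 level of the 20 respiratory subunit genes in each mouse, relative to the reference gene on the horizontal axis and to the sham mean. Both surgery mice lie below both sham mice with every reference, from -0.19 in 1 surgery mouse with Gusb to -1.09 in 1 with Tbp.

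Single mice moved these values. Relative to Actb the median was -0.22 without sham mouse 2 and -0.47 without sham mouse 1, the library low in choroid plexus markers. Relative to Gusb, the surgery mice were at -0.19 and -0.53, so that leaving out surgery mouse 2 gave -0.19 and leaving out surgery mouse 1 gave -0.53.

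A further 28 genes in common use as references were taken from a list of names. Of these, 15 fell in edgeR's test (12.8% of all genes did), 3 were DEGs (9.01%) and the median log2 fold change was -0.29 against 0.01 for all genes. Gapdh, a glycolytic enzyme and a common alternative to beta-actin, was at 316 and 338 CPM in the sham mice and at 209 and 217 CPM in the surgery mice. It fell (log2 fold change -0.62, SE 0.06; edgeR adjusted p = 0.0045). Rps18, a ribosomal protein gene that was also a DEG, fell by 0.60 on the log2 scale and was named after its values were seen.

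Of the same 28 genes, 13 did not pass the test. Rpl4, another ribosomal protein gene, was at 407 and 402 CPM in the sham mice and at 449 and 443 CPM in the surgery mice (0.14, adjusted p = 0.104 in edgeR), and was named after its values were seen. With length and GC trends removed, 8 of the 28 were called against 2.49% of all genes, among them Gapdh (-0.46).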

How the data were processed

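The authors aligned paired-end reads to mm10 and deposited, for each gene and mouse, a raw count of reads. The submitters' processing notes list HISAT2 2.1.0, Bowtie2 2.2.3, TopHat2 and HTSeq 0.6.0, and the use of strand is not given in the sources used here. The same table holds the authors' own mean, fold change, log2 fold change, p-values and marks, which were not used. The counts were fitted in edgeR 4.0.16 under R 4.3.3 with filterByExpr (minimum count 10), TMM scaling and a quasi-likelihood F test of surgery against sham over 17144 genes. Standard errors follow from each log2 difference and its F value. CPM values are TMM-scaled, and SDs are between mice.

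Alternatives used DESeq2 1.42.0, limma 3.58.1, other scalings, no filter, the replicate number as a block, each mouse left out, and smooth trends in transcript length and GC content (mgcv 1.9.3) entered as offsets. Adding the counts of sequence-sharing genes, and removing the trends from pair shifts and relative medians, were chosen after seeing the data. Symbols, coordinates and counts are those of the table. Lengths, GC content, coding sequences and shared 75 nt windows come from GENCODE M21 transcripts of the same genome, 1 principal transcript per gene for lengths and GC. The coordinates of Ywhaz differ slightly there. The 2 mice of a group differed by more than sampling noise (chi-square per degree of freedom of 13.4 and 8.45).

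The genes and lists were chosen with earlier results of these data known. The genes named are the 8 reference genes, genes of each list with an adjusted p under 0.05 (where more than 4, the 2 that rose most and the 2 that fell most), Gapdh, genes that share windows with a reference gene and hold at least 1% of its count, the 3 genes of at least 100 CPM nearest to Actb in pattern and the 5 least variable genes of at least 50 CPM. A gene that this rule names is not reported here.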

Additional observations from a re-analysis of the deposited data

How the results depend on the processing

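Over all alternatives, none of the 8 reference genes became a DEG, and Actb, Actg1, Sdha, Ppia and Gusb stayed lower and Tbp higher. The count of 5 genes called became 3 without the filter on low counts, 3 with length and GC trends removed, and 2 to 4 when single mice were left out. The share of all genes called fell too, from 26.0% to 9.10%, 2.49% and 13.5 to 22.9%. Without the filter, Ywhaz (0.21) and Tbp (0.37) lost their calls. With DESeq2, Ppia gained one (-0.22) and Tbp lost it (0.36). With length and GC trends removed, Actb (-0.31) and Tbp (0.16) lost their calls, and Ywhaz (-0.13) and Hprt (-0.47) turned. The median of the 20 subunit genes then moved to -0.20 relative to Actg1, -0.53 to Ppia, -0.44 to Ywhaz, -0.73 to Tbp, -0.10 to Hprt, -0.17 to Sdha and -0.34 to the mean of the 8. The cause was not tested.

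Leaving out single mice gave 0.17 to 0.26 for Ywhaz, 0.26 to 0.49 for Tbp, -0.33 to -0.27 for Sdha, 0.06 to 0.16 for Hprt, -0.46 to -0.21 for Gusb and -0.26 to -0.15 for Ppia, which passed the test only without surgery mouse 1. For the 20 subunit genes the median ran from -0.47 to -0.22 relative to Actb, -0.54 to -0.43 to Ppia, -1.05 to -0.77 to Ywhaz, -1.28 to -0.86 to Tbp, -0.88 to -0.73 to Hprt, -0.53 to -0.19 to Gusb and -0.68 to -0.49 to the mean of the 8.

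The replicate number was also fitted as a block. The labels do not say that a number marks a shared litter or day, and the deviations of same-numbered mice correlated at 0.255 over 15514 genes in only 2 pairs, so the numbers are taken as names. With the replicate block 5279 genes were called, against 4450 without it, and Ppia passed the test (-0.20).

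Over all genes, 2665 were called without the filter (of 29300) and 427 with length and GC trends removed. With 2 mice per group, p-values rest on the spread of the model across genes. Depth limits Gusb and Tbp most, since 225 to 573 counts per mouse carry a sampling error of 4.18 to 6.67%. Whether reads were counted by strand is unknown, which bears on the longest Tbp transcript, where Pdcd2 lies on the opposite strand.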

Other observations

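The genes whose level over the 4 mice was nearest to that of Actb, among 2317 genes of at least 100 CPM, were Atp6v1g2, a vacuolar proton pump subunit, Abcg4, a sterol transporter, and Lzts3, a postsynaptic protein. Their log2 fold changes of -0.34, -0.35 and -0.36 were close to the -0.34 of Actb. The likeness is a distance over 4 mice between log2 CPM values centered on each gene's mean (0.016 to 0.019), given as a description.

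Among 4638 genes of at least 50 CPM, the smallest SD of log2 CPM over the 4 mice, with TMM scaling, belonged to Arpc5 (0.0056), a subunit of the Arp2/3 complex, then Sar1a (0.0083), a GTPase of vesicle budding from the endoplasmic reticulum, Prkaca (0.011), the catalytic subunit of protein kinase A, Smarcc2 (0.012), a chromatin remodeling subunit, and Ank2 (0.012), an ankyrin. Hprt had an SD of 0.077, and 14.8% of these genes had a smaller one, while 68.2% had a smaller SD than Actg1 (0.230). These genes were selected as the extremes of 4 mice. With total counts only, the SDs were 0.027 for Arpc5, 0.030 for Sar1a, 0.018 for Prkaca, 0.023 for Smarcc2 and 0.022 for Ank2, so that Prkaca was the lowest of the 5. With length and GC trends removed, their log2 fold changes were -0.22 for Arpc5, -0.21 for Sar1a, 0.15 for Prkaca, 0.11 for Smarcc2 and -0.08 for Ank2.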
